A study of Mus musculus with 4 samples.

Results

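The collagen and laminin genes of the mouse were followed in RNA sequencing libraries of embryonic microglia, the resident macrophages of the brain. Members were all rows of the count table whose symbol was Col, a number, a and a number, or Lama, Lamb or Lamc and a number. This took 55 of the 26051 features, 44 collagen genes and 11 laminin genes. Of these, 51 had at least 10 counts over the 4 libraries, and 43 passed the filter on low counts and were tested, 34 of them collagens and 9 laminins. The 4 genes under that minimum, named here as not measured, were Col6a4, Col6a5 and Col6a6 with 3 counts each and Lamb3 with 7 counts.

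The study deleted Hat1, which encodes a histone acetyltransferase that acts on newly made histone H4, conditionally in microglia with the Cre-loxP system, and asked how microglial Hat1 bears on cortical neural stem cells. Microglia were isolated at embryonic day 14, and poly(A) RNA was sequenced from 2 libraries labelled ko, replicates 1 and 3, and 2 libraries labelled ff, replicates 2 and 5. The labels do not spell out ff, which is taken here as the comparison group without the deletion. They give neither the Cre driver, the strain, the exons flanked by loxP, how the cells were isolated, nor how many embryos went into a library. The p-values therefore measure the spread between these libraries only, which may be partly technical.

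Collagens are triple helices of alpha chains that are secreted into the extracellular matrix. Fibrillar collagens form the fibrils of connective tissue, type IV collagen forms the sheet of the basement membrane, and laminins, each a trimer of an alpha, a beta and a gamma chain, form the second network of that sheet. In the embryonic brain the pial basement membrane, at which radial glial endfeet attach, and the vascular basement membrane hold both, and meningeal fibroblasts, endothelial cells and mural cells are known sources of these chains. Macrophages are known chiefly for taking up and degrading matrix.

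The libraries held 14814846 and 15970403 counts in ff replicates 2 and 5, and 18990917 and 15747757 counts in ko replicates 1 and 3. Levels below are CPM, the share of a library's counts that a gene took, on library totals scaled by the trimmed mean of M-values. Hat1 itself stood at 44.3 and 71.4 CPM in ff replicates 2 and 5 and at 39.2 and 36.6 CPM in ko replicates 1 and 3, a log2 fold change of -0.61 ± 0.23 (SE) that did not pass the test (edgeR quasi-likelihood test, adjusted p = 0.298). The deletion was thus not seen as a called fall of the whole-gene count. The library ko replicate 1 stood apart on the sex chromosomes, with 3 counts of Xist against 2847 to 3986 in the other 3 libraries. It held 3188 counts of the Y-linked gene Ddx3y, against 0 in each of the other 3. This is the pattern of male cells in ko replicate 1 and of female cells in the other 3 libraries. What is high or low in ko replicate 1 thus cannot be told apart from a difference by sex. Of the members, Col4a5 and Col4a6 lie on the X chromosome. Listed microglial markers summed to 15909 and 15679 CPM in ff replicates 2 and 5 and to 15264 and 14656 CPM in ko replicates 1 and 3, mostly from Csf1r and C1qa, which other macrophages share. Listed markers of border-associated macrophages, the macrophages of the meninges and perivascular spaces, summed to 22304 and 19793 CPM in ff and to 15675 and 17618 CPM in ko, above the microglial list in every library. The microglial gene P2ry12 stood at 882 to 983 CPM and the border macrophage gene Mrc1 at 4828 to 7398 CPM. The libraries thus held macrophage RNA with markers of both kinds, and the markers did not set microglia apart as the main source.

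No collagen or laminin gene passed the test in either direction. With edgeR, 0 of 43 were called higher in ko and 0 lower at an adjusted p of 0.05, where 1.19% of all 15840 genes tested were called higher and 0.518% lower. At an unadjusted p of 0.05, 5 members (11.6%) were higher and 1 (2.33%) was lower, against 8.62% and 7.56% of all genes. DESeq2 called 1 member, Col9a2, higher and none lower, with 8 higher and 0 lower at an unadjusted p under 0.05 (background 5.90% and 5.20%) and no adjusted p for 3 members. Limma-voom called 0, with 12 higher and 1 lower at an unadjusted p under 0.05 (background 8.29% and 7.46%). At an adjusted p DESeq2 called 2.09% of all genes higher and 1.41% lower, and limma-voom 0.827% and 0.278%.

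Which members were called depended on the libraries and the filter. Without ff replicate 2, 0 were called higher (background 0.863%), without ff replicate 5 there were 4 (1.30%), without ko replicate 1 there were 3 (2.51%), and without ko replicate 3 there were 3 (5.20%). Without the low-count filter 10 of 55 were called higher (background 2.99%). There Lama4 was called with an SE of 0.185, against 0.373 with the filter, at nearly the same log2 fold change (0.957 and 0.954). Its replicates differed by 0.91 log2 in ff and 0.67 in ko. The SE of Col1a1 instead rose from 0.394 to 0.508. For Lama4 the call thus came with a smaller SE and not with a larger fold change. With DESeq2 size factors, with library totals only and with at least 50 counts in 2 libraries, 0 were called higher, against 1.17%, 1.40% and 1.48% of all genes. None of these settings called a member lower, where the backgrounds were 0.332%, 1.42%, 3.57% and 2.14% with a library left out, 2.33% without the filter, and 0.581%, 0.896% and 0.701% in the last 3 settings.

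The fold changes of the members lay mostly on one side. In 35 of 43 the fitted ko level was above the ff level (81.4%, against 51.0% of all genes), and the median log2 fold change was 0.39, against 0.01 over all genes tested. The groups did not overlap, with both ko libraries above both ff libraries, in 18 members (41.9%), where the background was 25.8% of all genes. Both ko libraries were below both ff libraries in 2 members, Lamb2 and Lama3 (4.65%, against a background of 23.8%). With a library left out, groups do not overlap more often by construction. The low-count filter also admits a gene on a single library, as it did Col8a2 through ko replicate 1 without ko replicate 3. Members apart and higher in ko then numbered 22 of 48 without ff replicate 2 (background 35.3%), 30 of 46 without ff replicate 5 (36.7%), 22 of 45 without ko replicate 1 (37.5%) and 34 of 48 without ko replicate 3 (39.3%). Those apart and lower numbered 6, 5, 11 and 6 in the same settings, against 35.3%, 38.1%, 37.5% and 37.9%, and with at least 50 counts in 2 libraries 1 of 29, against 25.2%. In bulk RNA, more or fewer cells of a type and more or less RNA per cell cannot be told apart.

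**Figure D1:**
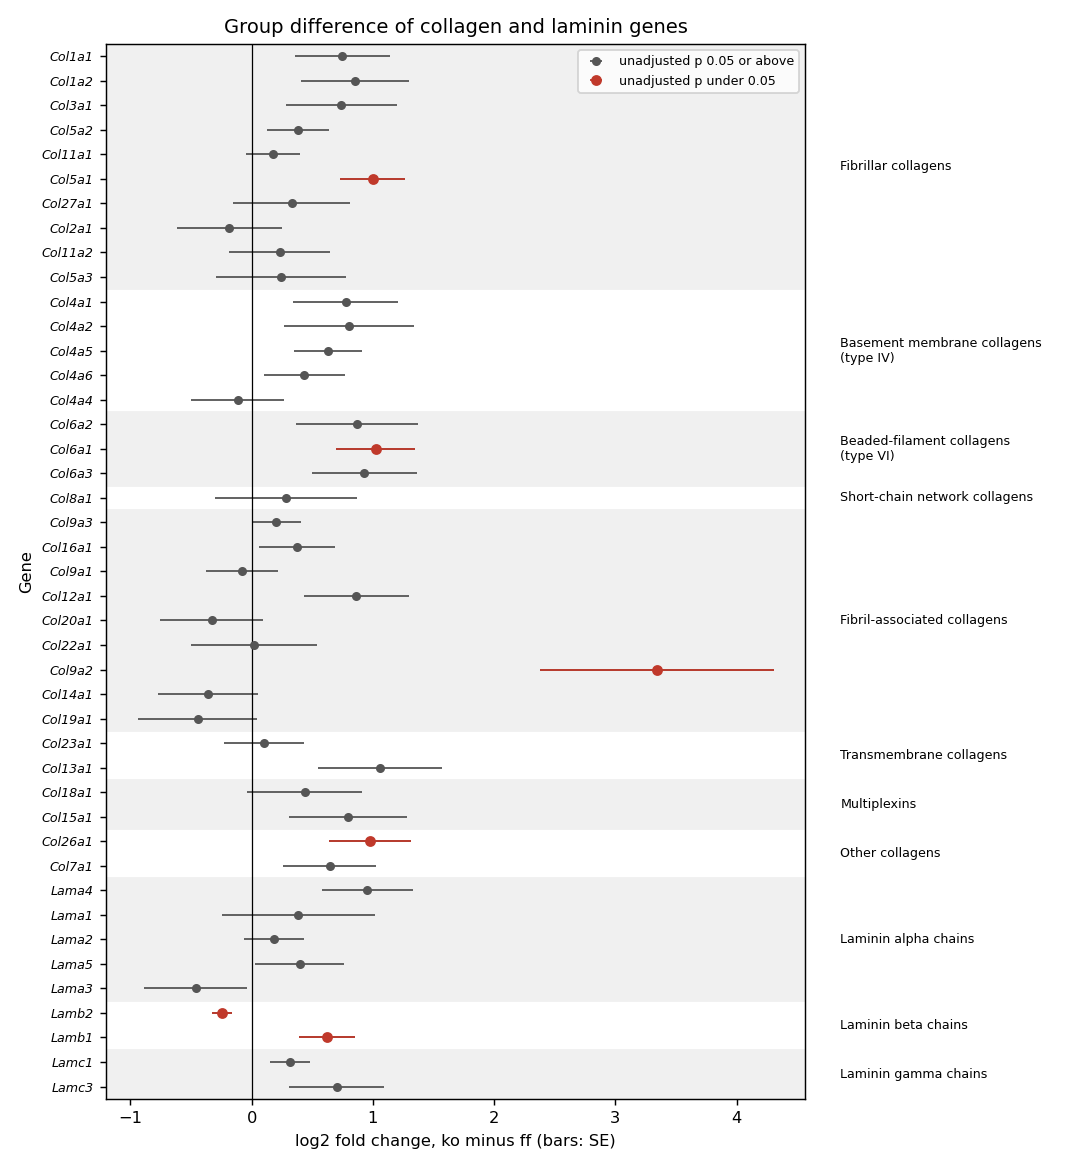
Log2 fold change of ko over ff (horizontal axis) with its standard error for each of the 43 tested collagen and laminin genes, grouped by class. Most points lie to the right of 0, Col9a2 lies farthest right at 3.34 and Lama3 farthest left at -0.46, and no gene passed the test at an adjusted p of 0.05.

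Single libraries carried much of this offset. The library ff replicate 2 was the lowest of the 4 in 27 of the 43 tested members (62.8%, against 29.1% of all genes), and ko replicate 1 was the highest in 28 (65.1%, against 28.2%). Each member's deviation from its own mean over the libraries had a median of -0.52 log2 in ff replicate 2, 0.06 in ff replicate 5, 0.50 in ko replicate 1 and 0.08 in ko replicate 3. The middle libraries, ff replicate 5 and ko replicate 3, came from different groups and were nearly level.

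The difference between libraries of one group was as large as that between the groups. Within ff, replicate 5 exceeded replicate 2 by a median of 0.39 log2 and was higher in 33 of 43 members. Within ko, replicate 1 exceeded replicate 3 by a median of 0.50 log2 and was higher in 31 members. Between the groups, ko replicate 3 differed from ff replicate 5 by a median of 0.05 log2, with 24 members higher in ko, whereas ko replicate 1 exceeded ff replicate 2 by 0.93. The median absolute difference between ff replicates was 0.60 log2 for the members and 0.17 for all genes. Between ko replicates it was 0.66 and 0.19, and between ko replicate 3 and ff replicate 5 it was 0.20 for both. The fitted coefficient of variation between replicates had a median of 26.0% over the members and 14.2% over all genes.

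**Figure D2:**
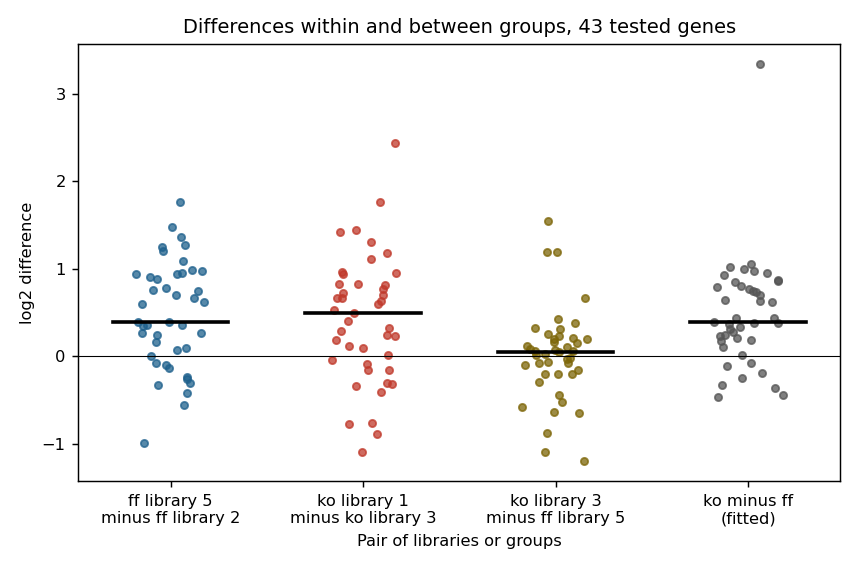
Log2 difference of each tested member (vertical axis) for pairs of libraries within and between the groups and for the fitted difference of ko and ff, with a bar at the median. The members spread widely between replicates of the same group, with medians of 0.39 (ff) and 0.50 (ko), and ko replicate 3 against ff replicate 5 lies close to 0 at 0.05.

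Fibrillar collagens gave the most counts. Col1a1, the alpha 1 chain of type I collagen, the main fibril of bone, skin and meninges, stood at 61.8 and 93.6 CPM in ff replicates 2 and 5 and at 166 and 94.6 CPM in ko replicates 1 and 3. Its group means were 77.7 ± 22.5 (SD, n = 2) and 131 ± 50.8 CPM, a log2 fold change of 0.75 ± 0.39 (edgeR adjusted p = 0.467). Only ko replicate 1 was clearly higher, since ko replicate 3 lay within 1 CPM of ff replicate 5. Col1a2, the partner chain of the same trimer, stood at 50.2 and 85.1 CPM in ff and at 156 and 87.9 CPM in ko, a log2 fold change of 0.85 ± 0.45 (edgeR adjusted p = 0.468). It had the same order of libraries, with ff replicate 2 lowest and ko replicate 1 highest.

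Col3a1, the single chain of type III collagen, which forms fibrils with type I in distensible tissues, was added after its values were seen because it is among the most abundant members. It stood at 40.7 and 81.0 CPM in ff and at 124 and 79.7 CPM in ko, so the groups overlapped (log2 fold change 0.74 ± 0.46, edgeR adjusted p = 0.528). The 3 genes thus gave the same picture of a low ff replicate 2, a high ko replicate 1 and level libraries between them.

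Col5a1, a chain of type V collagen that starts type I fibrils, departed from that order. It stood at 3.14 and 2.92 CPM in ff replicates 2 and 5 and at 5.43 and 6.68 CPM in ko replicates 1 and 3, from 46, 47, 102 and 106 counts. The ff replicates were close and both ko libraries lay above them, with ko replicate 3 the higher. The means were 3.03 ± 0.153 and 6.06 ± 0.887 CPM, a log2 fold change of 1.00 ± 0.27, and the adjusted p of 0.133 was the lowest of any member by edgeR (unadjusted p = 0.00582). Leaving out each library in turn kept the log2 fold change between 0.84 and 1.13. Transcripts annotated on the other strand, 2810430I11Rik and Gm13372, overlap 1.18% and 1.34% of its exonic bases, and whether counting used strand is not given.

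The other tested fibrillar genes were Col5a2, Col5a3, Col11a1, Col11a2, Col27a1 and the cartilage collagen Col2a1. Their log2 fold changes ran from -0.19 in Col2a1 to 0.38 in Col5a2, and the groups overlapped in every one of the 6. Col24a1 had 12 counts in all and was not tested. The fibrillar class summed to 180 and 293 CPM in ff replicates 2 and 5 and to 487 and 299 CPM in ko replicates 1 and 3.

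The 250 bases before the annotated starts of 3 of the most abundant members are shown because these genes differ in how they varied, Col1a2 and Col3a1 with a wide spread and Lamb2 with a narrow one. The sequences are from RefSeq on GRCm38.p6, plus strand, 5′ to 3′, with capitals marking the CCAAT box, the GC box (letters GGGCGG) and the TATA box (letters TATAAA), searched on both strands. Col1a2 lies at chr6:4505368-4505617, Col3a1 at chr1:45311288-45311537 and Lamb2 at chr9:108479612-108479861.
Col1a2: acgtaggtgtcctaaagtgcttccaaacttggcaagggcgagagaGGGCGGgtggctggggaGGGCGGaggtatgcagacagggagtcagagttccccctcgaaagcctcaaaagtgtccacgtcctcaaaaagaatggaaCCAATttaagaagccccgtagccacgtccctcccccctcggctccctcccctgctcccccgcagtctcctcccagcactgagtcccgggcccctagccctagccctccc
Col3a1: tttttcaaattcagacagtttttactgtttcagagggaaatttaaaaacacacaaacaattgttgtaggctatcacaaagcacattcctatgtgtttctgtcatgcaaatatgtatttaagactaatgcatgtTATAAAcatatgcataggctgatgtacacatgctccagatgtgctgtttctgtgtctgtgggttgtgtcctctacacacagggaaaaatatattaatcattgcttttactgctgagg
Lamb2: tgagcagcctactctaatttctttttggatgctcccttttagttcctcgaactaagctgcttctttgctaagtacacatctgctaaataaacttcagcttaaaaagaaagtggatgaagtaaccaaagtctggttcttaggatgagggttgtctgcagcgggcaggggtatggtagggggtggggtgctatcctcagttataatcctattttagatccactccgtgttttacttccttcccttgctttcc
The Col1a2 window held 1 CCAAT box and 2 GC boxes, the Col3a1 window held 1 TATA box, and the Lamb2 window held none of the 3 motifs. Over the 44 windows available for members, 31.8% held a CCAAT box, 54.5% a GC box and 11.4% a TATA box, against 33.8%, 32.7% and 12.4% of all 32851 windows. These matches describe letters in a window and were not tied to any factor or to the values.

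Type IV collagen, the sheet of the basement membrane, differed less between the ko libraries than type I. Col4a1, the alpha 1 chain, stood at 13.6 and 31.4 CPM in ff replicates 2 and 5 and at 40.2 and 37.0 CPM in ko replicates 1 and 3. Col4a2, which joins it in the common trimer of the sheet, stood at 11.1 and 31.1 CPM in ff and at 35.1 and 39.0 CPM in ko. In both genes ff replicate 2 was far below the other 3 libraries, and the ko libraries were close to each other.

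The log2 fold changes were 0.77 ± 0.43 for Col4a1 and 0.80 ± 0.54 for Col4a2, with edgeR adjusted p-values of 0.474 and 0.55. Both values turned on which library was left out. Without ff replicate 5 they were 1.48 and 1.71, and without ko replicate 1 they were 0.70 and 0.87. Without ff replicate 2 they fell to 0.30 and 0.25.

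The ratio of the chains was steadier than their level. Col4a1 over Col4a2, per kilobase of exon, was 1.20 (95% counting interval 0.968 to 1.48) and 0.983 (0.867 to 1.11) in ff replicates 2 and 5 and 1.12 (1.01 to 1.24) and 0.925 (0.824 to 1.04) in ko replicates 1 and 3. Their annotated starts lie 21 bases apart on opposite strands, and their exons share 22 bases. The chains of other basement membranes were lower. Col4a5 stood at 7.57 and 13.04 CPM in ff and at 18.2 and 13.7 CPM in ko (log2 fold change 0.63, edgeR adjusted p = 0.334), Col4a6 had a log2 fold change of 0.44 and Col4a4 of -0.12, and Col4a3, with 40 counts, was not tested. The class summed to 37.7 and 83.3 CPM in ff and to 102 and 98.0 CPM in ko.

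Type VI collagen forms beaded filaments around cells and next to basement membranes. Col6a1 stood at 6.27 and 7.02 CPM in ff replicates 2 and 5 and at 17.8 and 9.14 CPM in ko replicates 1 and 3, a log2 fold change of 1.02 ± 0.33 (edgeR unadjusted p = 0.0175, adjusted p = 0.21). The ff libraries were close, and ko replicate 1 lay far above the other ko library. Without ko replicate 3 the log2 fold change was 1.42, and without ko replicate 1 it was 0.45. Col6a2, a chain of the same trimer, stood at 5.25 and 10.4 CPM in ff and at 19.5 and 9.02 CPM in ko, and its groups overlapped (log2 fold change 0.87 ± 0.51, edgeR adjusted p = 0.476). Col6a3, the largest chain of that trimer, had a log2 fold change of 0.93 (edgeR adjusted p = 0.351). The ratio of Col6a1 to Col6a2 per kilobase ranged from 0.992 in ff replicate 5 to 1.75 in ff replicate 2, a wider range than for type I or type IV.

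**Figure D3:**
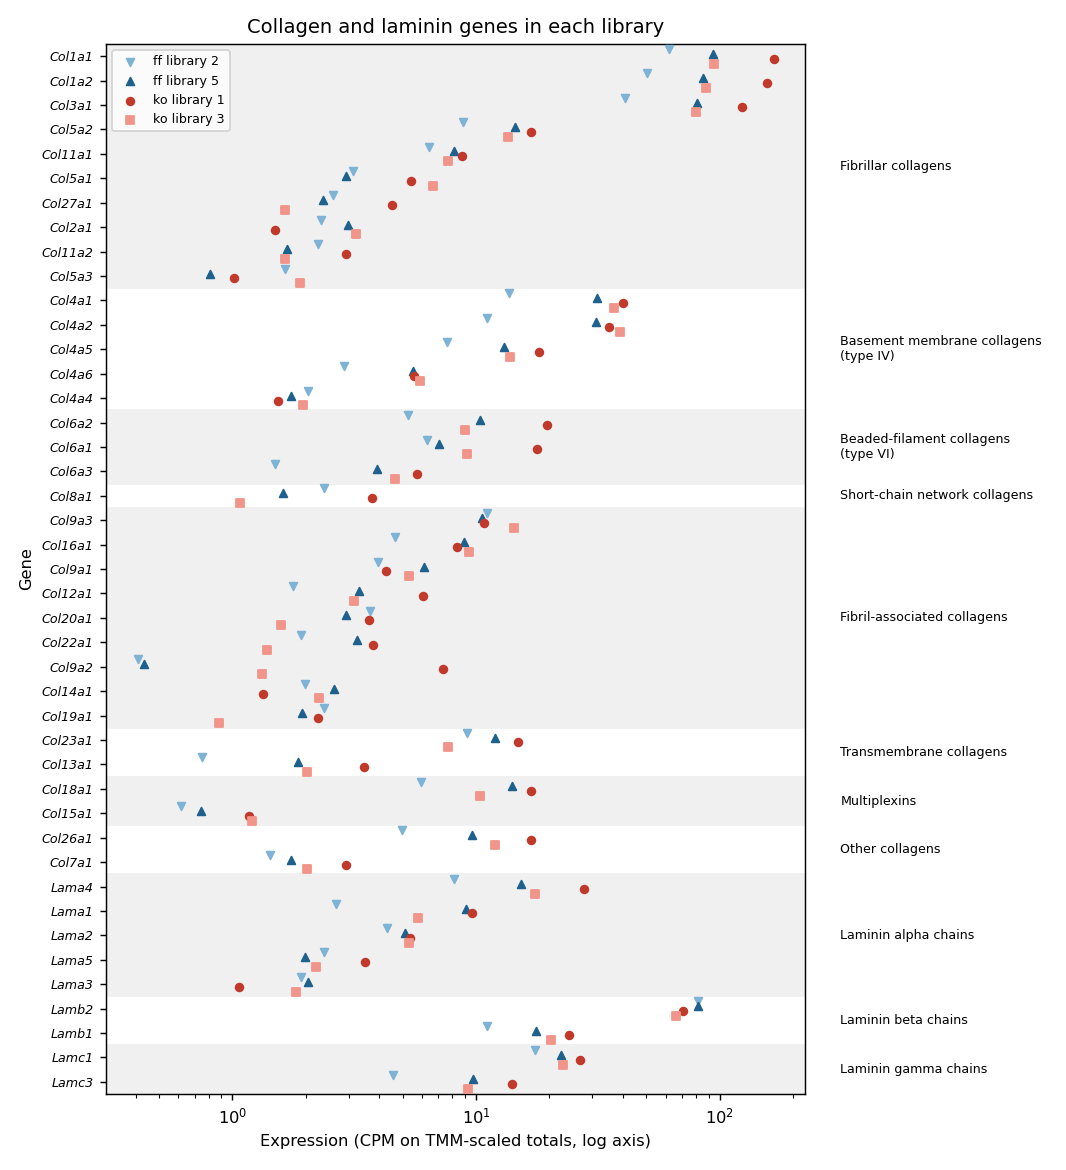
Levels in CPM on a log axis of the 43 tested members, with a point for each library of ff and ko. The library ff replicate 2 is low and ko replicate 1 high for Col1a1, Col1a2 and Lama4, Col4a1 and Col4a2 are low in ff replicate 2 alone, and Lamb2 varies only between 66.5 and 81.7 CPM.

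**Figure D4:**
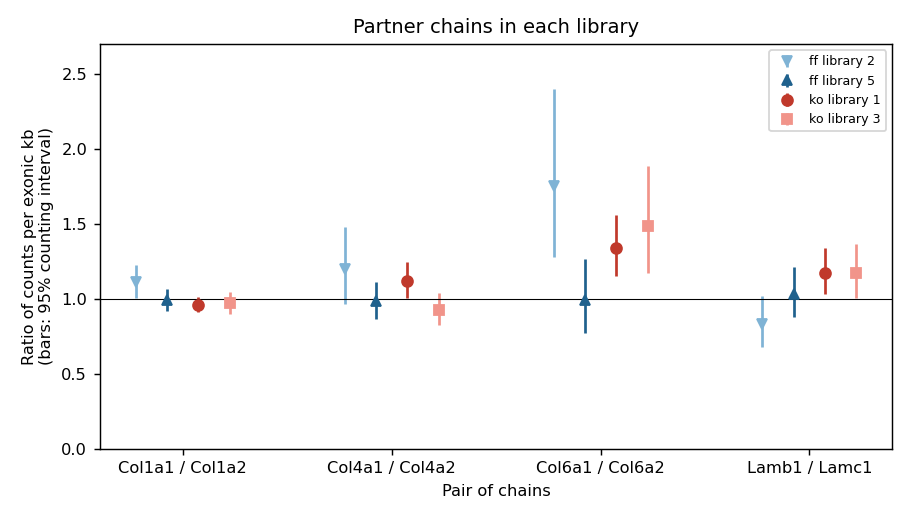
Ratio of partner chains per kilobase of exon in each library, with 95% counting intervals. Col1a1 over Col1a2 stays between 0.960 and 1.11, while Col6a1 over Col6a2 spans 0.992 to 1.75.

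The largest fold change belonged to Col9a2, a chain of type IX collagen, which decorates cartilage fibrils. It had 6 and 7 counts in ff replicates 2 and 5, 137 in ko replicate 1 and 21 in ko replicate 3, or 0.409, 0.435, 7.29 and 1.32 CPM. Its log2 fold change was 3.34 ± 0.96 (edgeR unadjusted p = 0.0167, adjusted p = 0.205), and DESeq2 called it (adjusted p = 0.00286). The log2 fold change was 1.62 without ko replicate 1 and 4.08 without ko replicate 3. The ko replicates themselves differed by 5.51 times (95% counting interval 3.46 to 9.18). It was the only member that passed the low-count filter through its ko libraries, both ff libraries being under the limit of 0.631 CPM.

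Col9a2 was not alone in standing high in ko replicate 1. Col8a2, a short-chain network collagen known from the corneal basement membrane, had 4, 3, 48 and 7 counts in ff replicates 2 and 5 and ko replicates 1 and 3. It did not pass the low-count filter and rests on few counts. Col8a1, the partner of Col8a2, stood at 2.39, 1.61, 3.73 and 1.07 CPM in the same order and did not separate the groups (log2 fold change 0.28 ± 0.59, edgeR adjusted p = 0.855). Also of this class, Col10a1 of hypertrophic cartilage, had 27 counts.

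Of the other fibril-associated collagens, Col9a3 stood at 11.1, 10.6, 10.8 and 14.3 CPM in ff replicates 2 and 5 and ko replicates 1 and 3 (log2 fold change 0.20 ± 0.20, edgeR adjusted p = 0.657). Unlike Col9a2, a chain of the same type IX collagen, it was not high in ko replicate 1. Of its exonic bases, 7.68% overlap Tcfl5 in the annotation. Col16a1 stood at 4.64, 8.94, 8.36 and 9.33 CPM (0.38 ± 0.31, edgeR adjusted p = 0.592), with ff replicate 2 alone low. Of the rest, Col12a1 and Col22a1 were above 0 and Col9a1, Col14a1, Col19a1 and Col20a1 below 0 on the log2 scale, from -0.45 to 0.86, with overlapping groups in each.

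Among collagens that span the plasma membrane, Col23a1 stood at 9.14, 11.99, 14.9 and 7.69 CPM and its groups overlapped (log2 fold change 0.10, edgeR adjusted p = 0.915). Col13a1, found at neuromuscular and other adhesion sites, stood at 0.750, 1.86, 3.46 and 2.02 CPM (1.06 ± 0.51, edgeR adjusted p = 0.359). Col25a1 with 35 counts and Col17a1 with 15 counts were not tested. The multiplexins, collagens of basement membranes whose ends are cut off as inhibitors of vessel growth, were Col18a1 and Col15a1. Col18a1 stood at 5.93, 14.1, 16.8 and 10.3 CPM (0.44 ± 0.48, edgeR adjusted p = 0.71), and Col15a1 stood at 0.614, 0.745, 1.17 and 1.20 CPM (0.79 ± 0.49, edgeR adjusted p = 0.467). Only in Col15a1 of this pair did the groups stay apart.

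Col26a1 stood at 4.98 and 9.63 CPM in ff replicates 2 and 5 and at 16.9 and 11.9 CPM in ko replicates 1 and 3, a log2 fold change of 0.98 ± 0.34 (edgeR unadjusted p = 0.0257, adjusted p = 0.239). Its groups did not overlap, but the ff libraries differed by more than the nearest libraries of the groups did. Col7a1, which forms the anchoring fibrils of skin, stood at 1.43, 1.74, 2.93 and 2.02 CPM (0.64 ± 0.38, edgeR adjusted p = 0.455), and Col28a1 had 24 counts and was not tested.

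Laminin alpha chains carry the main cell-binding sites of the trimer. Lama4, the alpha chain of vascular basement membranes, stood at 8.11 and 15.3 CPM in ff replicates 2 and 5 and at 27.8 and 17.5 CPM in ko replicates 1 and 3, a log2 fold change of 0.95 ± 0.37 (edgeR adjusted p = 0.309). The gap between the groups was smaller than the gap within either. Lama1, of the pial membrane and early embryo, stood at 2.66 and 9.13 CPM in ff and at 9.64 and 5.80 CPM in ko (0.38 ± 0.63, edgeR adjusted p = 0.817), with overlapping groups. Lama3, of epithelial laminin, had the lowest log2 fold change of any tested member, -0.46 ± 0.43, at 1.91 and 2.05 CPM in ff and 1.06 and 1.83 CPM in ko (edgeR adjusted p = 0.636). Lama2 and Lama5, of muscle and of mature vessels and epithelia, had log2 fold changes of 0.18 and 0.39.

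Lamb2 was the most abundant laminin gene and the one member with the opposite direction at an unadjusted p under 0.05. It stood at 81.3 and 81.7 CPM in ff replicates 2 and 5 and at 70.8 and 66.5 CPM in ko replicates 1 and 3. The ff libraries were nearly equal and both ko libraries lay below them. The means were 81.5 ± 0.240 and 68.6 ± 3.07 CPM, a log2 fold change of -0.25 ± 0.08 (edgeR unadjusted p = 0.0174, adjusted p = 0.21), and leaving out each library in turn kept it between -0.31 and -0.21. Lamb1, the beta chain of most embryonic laminins, stood at 11.1 and 17.7 CPM in ff and at 24.1 and 20.4 CPM in ko, a log2 fold change of 0.62 ± 0.23 (edgeR unadjusted p = 0.0297, adjusted p = 0.254). The beta chains thus had fold changes of opposite sign, neither past the threshold.

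Lamc1, the gamma chain shared by most laminins, stood at 17.4 and 22.4 CPM in ff and at 26.7 and 22.7 CPM in ko (0.31 ± 0.16, edgeR adjusted p = 0.394). Lamc3 stood at 4.57 and 9.75 CPM in ff and at 14.1 and 9.27 CPM in ko (0.70 ± 0.39, edgeR adjusted p = 0.439), and Gm13441 on the other strand overlaps 5.60% of its exonic bases. Lamb1 over Lamc1 per kilobase, partners in the same trimers, was 0.834 (0.681 to 1.02) and 1.03 (0.881 to 1.21) in ff replicates 2 and 5 and 1.17 in both ko libraries (1.03 to 1.34 and 1.00 to 1.36). The intervals of ff replicate 2 and of ko replicate 1 did not overlap, and those of the other libraries did.

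Ranked by level per kilobase of exon, averaged over the 4 libraries, Col1a2 (17.7 CPM per kilobase), Col1a1 (17.6), Col3a1 (14.6) and Lamb2 (13.3) stood far above the next gene, Col4a1 at 4.62. Col4a2 at 4.51, Col26a1 at 3.89 and Col9a3 at 3.83 came after it. Col1a1 and Col1a2 did not differ beyond their spread over libraries, nor did Col4a1 and Col4a2. In ff replicate 2 the order at the top was different, with Lamb2 at 14.4 above Col1a1 at 10.4 CPM per kilobase.

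Set against ff replicate 2, the class sums of ff replicate 5, ko replicate 1 and ko replicate 3 were 1.63, 2.71 and 1.66 times as high for fibrillar collagens, 2.21, 2.69 and 2.60 times for type IV, and 1.59, 3.21 and 1.70 times for type VI. Laminin alpha chains gave 1.73, 2.45 and 1.69 times, and gamma chains 1.46, 1.90 and 1.45 times. Laminin beta chains, of which Lamb2 is most, gave 1.07, 1.03 and 0.938 times. Fibrillar, type VI and laminin alpha sums thus peaked in ko replicate 1, whereas type IV was about as high in both ko libraries.

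Markers of the cells known to make these chains also differed between libraries. The 13 listed meningeal and fibroblast markers summed to 146, 169, 356 and 195 CPM in ff replicates 2 and 5 and ko replicates 1 and 3. Relative to ff replicate 2 this is 1.16, 2.44 and 1.33 times. Of 10 tested, 0 passed in either direction with edgeR. At an unadjusted p under 0.05 there were 3 higher and 1 lower (background 8.62% and 7.56%). DESeq2 called 2 (background 2.09% higher and 1.41% lower) and limma-voom 0 (0.827% and 0.278%). Their median log2 fold change was 0.93. Dcn, a small proteoglycan of fibroblasts, stood at 57.2, 57.6, 161 and 66.8 CPM, and Aldh1a2, the retinoic acid enzyme of meninges, at 22.1, 28.0, 64.8 and 42.7 CPM (edgeR adjusted p = 0.463 and 0.112). Both were highest in ko replicate 1, the library in which the fibrillar collagens were highest. Of the 10 tested markers, 9 had a log2 fold change above 0 and 1, Pdgfra, below. Pdgfra stood at 25.9, 28.8, 17.6 and 22.6 CPM and was lowest in ko replicate 1 (log2 fold change -0.44, edgeR adjusted p = 0.223).

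Mural cell markers summed to 149, 221, 219 and 287 CPM in the same order of libraries, and endothelial markers to 111, 130, 114 and 178 CPM. Both sums were lowest in ff replicate 2 and highest in ko replicate 3. Of 10 mural and 13 endothelial markers tested, 0 passed with edgeR. At an unadjusted p under 0.05, 1 mural marker was higher and 2 lower (background 8.62% and 7.56%). In the endothelial list 1 was higher and 0 lower. DESeq2 and limma-voom called 0 of either list. Rgs5 and Vtn, of pericytes, stood at 72.5, 102, 61.2 and 137 CPM and at 39.7, 68.7, 121 and 93.8 CPM, and the endothelial genes Egfl7 and Cldn5 at 50.5, 41.7, 40.6 and 48.8 CPM and at 21.2, 38.6, 28.2 and 58.1 CPM.

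Neural progenitor markers summed to 714, 962, 727 and 967 CPM and neuron markers to 266, 294, 213 and 252 CPM, with 0 of 8 and 0 of 10 past the threshold by edgeR. At an unadjusted p under 0.05, 2 progenitor markers were higher and 1 neuron marker lower (background 8.62% and 7.56%). DESeq2 called 1 progenitor and 0 neuron markers (background 2.09% higher and 1.41% lower) and limma-voom 0 of either. No listed marker was at 0 in all 4 libraries. The progenitor genes Slc1a3 and Fabp7 stood at 426, 575, 405 and 582 CPM and at 131, 204, 148 and 182 CPM. The neuron genes Map2 and Gap43 stood at 103, 107, 74.6 and 85.8 CPM and at 80.8, 84.7, 60.6 and 78.0 CPM.

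The border macrophage markers lay in the reverse order, with their sum highest in ff replicate 2 and lowest in ko replicate 1. Both ko libraries were below both ff libraries in 7 of the 10 listed genes, against 23.8% of all genes. With edgeR 1 was called lower, Cd163 (background 0.518%). DESeq2 called 3 genes of the list (background 2.09% higher and 1.41% lower) and limma-voom 1 (0.827% and 0.278%). At an unadjusted p under 0.05 by edgeR, 5 were lower and 0 higher (background 7.56% and 8.62%). The median log2 fold change was -0.27. The part of any of these cells in the collagen and laminin values was not tested.

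**Figure D5:**
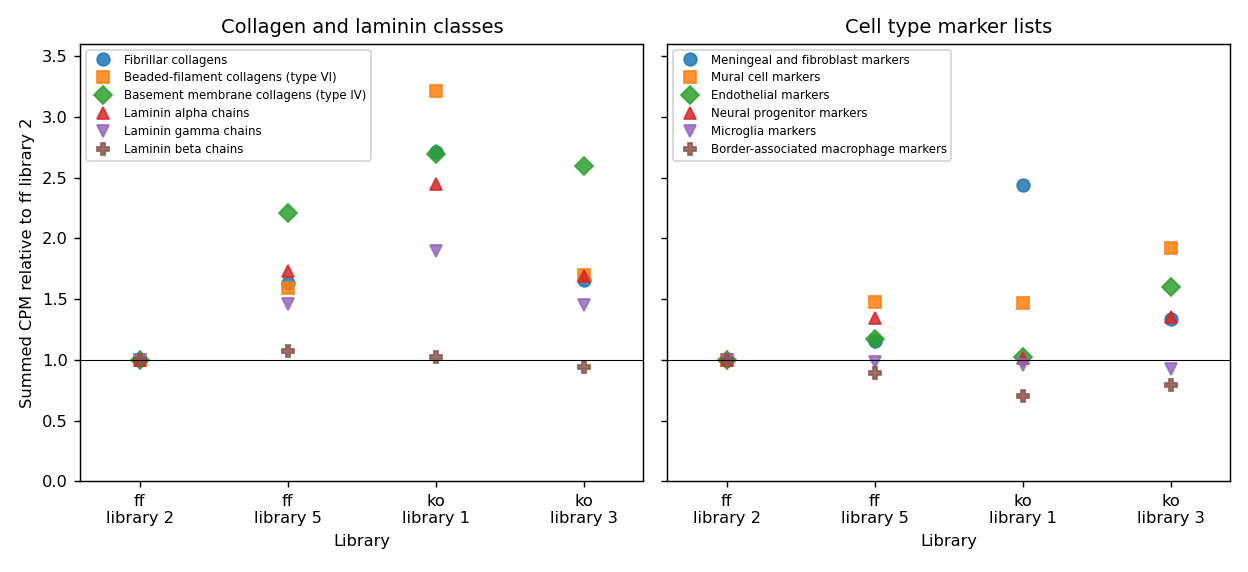
Summed level of each collagen and laminin class drawn and of 6 marker lists in every library, relative to ff replicate 2. Fibrillar and type VI collagens and the meningeal and fibroblast markers are highest in ko replicate 1 (2.71, 3.21 and 2.44 times), and laminin beta chains stay near 1 in all libraries.

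None of the genes that build and process the chains passed the test. Of 19 modification and folding genes, 0 passed with edgeR in either direction, and their median log2 fold change was 0.06. At an unadjusted p under 0.05, 0 were higher and 1 lower (background 8.62% and 7.56%), with 0 called by DESeq2 and by limma-voom. P4hb, a subunit of the prolyl hydroxylase that stabilises the helix, stood at 380, 413, 409 and 400.5 CPM in ff replicates 2 and 5 and ko replicates 1 and 3, and Plod1, a lysyl hydroxylase, at 359, 347, 316 and 360 CPM. Of 10 tested cleavage and cross-linking genes, 0 passed (unadjusted: 1 higher and 0 lower, same background), with a median log2 fold change of 0.24. Loxl3, a lysyl oxidase relative, stood at 26.3, 27.6, 22.3 and 23.8 CPM, and Pxdn, the peroxidase that cross-links type IV collagen, at 5.45, 9.13, 8.73 and 11.7 CPM. The groups overlapped in P4hb, Plod1 and Pxdn, and in Loxl3 both ko libraries lay below both ff libraries (edgeR adjusted p = 0.397).

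Of 14 tested basement membrane partners, 0 passed with edgeR, with a median log2 fold change of 0.32. At an unadjusted p under 0.05, 2 were higher and 0 lower (background 8.62% and 7.56%). Nid2, which links laminin to type IV collagen, stood at 288, 252, 240 and 265 CPM, and Sparc, a collagen-binding protein that microglia also make, at 259, 284, 263 and 216 CPM. Of 14 tested receptors, 0 passed (unadjusted: 3 higher and 0 lower, background 8.62% and 7.56%). Itgb1, the shared beta chain of collagen and laminin integrins, stood at 263, 274, 498 and 310 CPM (edgeR adjusted p = 0.364), high in ko replicate 1, and Lair1, an inhibitory collagen receptor of leukocytes, at 126, 147, 163 and 140 CPM. DESeq2 and limma-voom called 0 genes of the cross-linking, partner and receptor lists.

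With edgeR on every library, the proteases were the one matrix list with called genes. Of 15 tested, 1 was higher and 1 lower (background 1.19% and 0.518%). Mmp2, a gelatinase of stromal cells, stood at 7.64 and 8.76 CPM in ff replicates 2 and 5 and at 17.2 and 14.9 CPM in ko replicates 1 and 3, and rose 1.96 times (edgeR adjusted p = 0.0478). The call was lost with limma-voom (adjusted p = 0.0695), without ff replicate 2 (edgeR adjusted p = 0.224) and without ff replicate 5 (edgeR adjusted p = 0.0601). Mmp9, the gelatinase of macrophages and neutrophils, stood at 92.7 and 88.3 CPM in ff and at 49.0 and 46.1 CPM in ko, and fell to 0.526 of the ff level (edgeR adjusted p = 0.00138). Its groups lay far apart, and it stayed past the threshold with DESeq2 and limma-voom. With a library left out its log2 fold change ran from -0.99 to -0.89. Among the macrophage markers, the microglial Tmem119 rose from 277 ± 9.90 to 423 ± 39.4 CPM (edgeR adjusted p = 0.0158). The chemokine receptor gene Cx3cr1 fell from 2265 ± 39.0 to 1198 ± 107 CPM, and the scavenger receptor gene Cd163 of border macrophages fell from 831 ± 12.9 to 456 ± 58.4 CPM (edgeR adjusted p = 0.00108 and 0.004).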

How the data were processed

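For the 4 libraries the authors deposited raw read counts per gene. Per the submitters' processing notes reads were aligned with HISAT2 2.0.5 to GRCm39. How reads were assigned to genes (tool, strand, annotation) is not given in the sources used here. Of 26054 lines in the table, 3 hold no counts. Counts were tested with edgeR 4.0.16 in R 4.3.3 (filterByExpr, trimmed mean of M-values, robust quasi-likelihood test, Benjamini-Hochberg over 15840 genes, threshold 0.05), with DESeq2 1.42.0 and limma-voom 3.58.1 as alternatives. The scripts were tested on simulated data. An exact permutation test of 2 against 2 cannot go below p = 0.333. Counting intervals are exact binomial at 95% and cover counting error only. Lengths are exon unions of GENCODE M21 on GRCm38, all 55 genes matched by symbol, and sequences are RefSeq GRCm38.p6, where 40 genes matched.

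Values in every library are given for the 2 most abundant members of each class, those with an unadjusted p under 0.05 and the extremes of fold change. From every other list the genes past the threshold, up to 4, are given, or otherwise the 2 most abundant. Values of Col3a1 and Col4a5 beyond this rule were chosen after they were seen. The values of 1 member are not reported here. Members and lists were chosen with earlier results of these data known.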

Additional observations from a re-analysis of the deposited data

How the results depend on the processing

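Of the 43 tested members, 25 stayed above 0 on the log2 scale in every one of the 10 alternatives run on them, 3 stayed below 0 and 15 took both signs. With a library left out, the spread was taken from the group that kept both libraries. Without ko replicate 1 a gene's own spread weighed little. There Col4a2 had an SE of 0.156, though its ff libraries differed by 1.48 log2. Without the low-count filter the SE was 0.185 in Lama4, against 0.373 with it, and 0.508 in Col1a1, against 0.394. The count of members called higher was 1 with DESeq2 and 10 without the low-count filter. It was 0 without ff replicate 2, 4 without ff replicate 5 (Col4a1, Col4a2, Col26a1 and Lamb1), 3 without ko replicate 1 (Col4a1, Col4a2 and Col5a1) and 3 without ko replicate 3 (Col6a1, Col8a2 and Col9a2). The median log2 fold change ran from 0.26 to 0.91 with a library left out. Members with ko apart above ff numbered 22 to 34 with a library left out (background 35.3% to 39.3%), and those apart below 5 to 11 (35.3% to 38.1%), or 1 (25.2%) with at least 50 counts in 2 libraries. Signs turned with a library left out in Col16a1 (-0.019 to 0.91), Col23a1 (-0.47 to 0.49), Col18a1 (-0.053 to 1.17), Lama1 (-0.24 to 1.51), Col8a1 (-0.90 to 0.90) and Col9a3 (-0.013 to 0.38), and also in Col2a1, Col4a4, Col5a3, Col9a1, Col11a2, Col19a1, Col20a1, Col22a1 and Col27a1. The causes were not tested. With a library left out, the median log2 fold change ran from 0.27 to 1.31 in the meningeal and fibroblast list. In the mural list it ran from -0.084 to 1.10. No paired analysis was possible because the ko replicates 1 and 3 and the ff replicates 2 and 5 share no number. In the main fit a gene was tested only where at least 2 libraries reached about 0.631 CPM.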
